A study of Mus musculus with 2 samples.

Results

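Angpt2, Tek, Tie1, Ptprb and Esm1 were chosen by name and are 5 of the 17139 genes measured in both libraries. Angpt2 encodes angiopoietin-2, Tek the receptor Tie2, Tie1 its orphan partner, Ptprb the phosphatase VE-PTP, and Esm1 the secreted proteoglycan endocan. They were followed through single-cell RNA sequencing of ECs sorted from subcutaneous Lewis lung carcinoma (LLC) tumours, a carcinoma line of C57BL/6 mice. One library came from a tumour injected with PBS and the other from a tumour injected with 14 µg of cGAMP, the cyclic dinucleotide that binds STING, in 70 µl of PBS. Both hosts were of the C57BL/6 background and adult, and the methods give an age of 8 to 9 weeks for male mice at implantation. The labels name no altered allele or further agent in either group. The study's methods give sampling 24 h after the injection, whereas a supplementary legend gives 6 h. Each library is 1 mouse, so no test was possible, no p-value is given, and every interval below covers counting error alone.

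Angiopoietin-2 is stored in Weibel-Palade bodies of ECs and binds Tie2, where in most settings it acts against angiopoietin-1, the ligand that activates the receptor and quiets the vessel wall. Tie1 forms complexes with Tie2 and tunes its signal, and VE-PTP removes phosphate from Tie2 and from the VE-cadherin complex. AKT downstream of active Tie2 keeps FOXO1 out of the nucleus, and FOXO1 in turn drives Angpt2 transcription. In tumours, angiopoietin-2 and endocan are both known as products of sprouting tip ECs.

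On the GRCm38 build, Tek lies on the plus strand of chromosome 4 (94739289 to 94874976) and Tie1 on the minus strand of the same chromosome (118471191 to 118490061). Angpt2 lies on the minus strand of chromosome 8 (18690263 to 18741562) and overlaps the oppositely oriented Mcph1. Ptprb lies on the plus strand of chromosome 10 (116275523 to 116389535). Esm1 lies on the plus strand of chromosome 13 (113209659 to 113218098) and overlaps the oppositely oriented Gzmk. None of them overlapped a gene of the same strand that the files list. Promoter windows from RefSeq (GRCm38.p6) matched 3 of the 5 genes, namely Tek, Tie1 and Esm1, which were all lower in the cGAMP library. The bases before the first annotated start are shown, with the ETS core GGAA, or TTCC on the other strand, in capitals because ETS factors act at many endothelial promoters. The stretches are chr4:94739039-94739288 (plus strand) for Tek, chr4:118490062-118490099 (minus strand) for Tie1 and chr13:113209409-113209658 (plus strand) for Esm1.
Tek: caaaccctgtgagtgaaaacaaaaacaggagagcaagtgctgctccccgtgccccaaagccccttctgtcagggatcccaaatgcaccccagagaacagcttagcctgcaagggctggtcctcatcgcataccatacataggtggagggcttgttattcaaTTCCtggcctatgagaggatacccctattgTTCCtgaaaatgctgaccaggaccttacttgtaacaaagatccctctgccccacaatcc
Tie1: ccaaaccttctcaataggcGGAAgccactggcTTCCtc
Esm1: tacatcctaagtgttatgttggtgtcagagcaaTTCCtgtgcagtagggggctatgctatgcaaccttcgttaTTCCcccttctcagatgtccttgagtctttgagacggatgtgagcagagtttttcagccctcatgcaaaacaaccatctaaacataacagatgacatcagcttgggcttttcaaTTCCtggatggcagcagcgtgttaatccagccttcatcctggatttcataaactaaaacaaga

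Over the full windows of 300 bases, which reach 50 bases past the RefSeq start, the Tie1 promoter held 9 ETS cores, a number reached by 1.59% of 32851 promoters of this length. Only 2 of the 9 stand in the stretch shown, because GENCODE places the start of Tie1 212 bases upstream of the RefSeq start. Esm1 held 4 cores (46.3% of promoters hold as many) and Tek 2 (84.6%). The GATA motif AGATAA was found once, in the Tek window, against 11.2% of all promoters with a match. The FOXO motif GTAAACA, the hypoxia motif ACGTG, the interferon-type motif GAAANNGAAA and the NF-kB-type motif GGGANNNNCC had no match in the 3 windows on either strand, against 3.65%, 19.6%, 3.44% and 20.7% of all promoters.

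The PBS library held 2517 ECs with 92081146 UMIs (median 29780 per cell) and the cGAMP library 1340 ECs with 63366746 UMIs (median 41178 per cell), with 1 cell barcode found in both. Levels below are the UMIs of a gene summed over cells and scaled to the total UMIs of those cells, as CPM. Endothelial markers were present throughout, with the 6 listed genes summing to 4585 CPM after PBS and 5679 CPM after cGAMP. Of these, 3 were higher in the cGAMP library, among them Egfl7 (1181.5 and 2122 CPM), whereas Pecam1, Cdh5 and Erg were lower. All 13 leucocyte markers measured were higher in the cGAMP library, with a sum of 16.02 CPM in PBS and 57.3 CPM in cGAMP and a range over clusters of 12.02 to 19.6 and 38.4 to 98.9 CPM. The 13 mural and fibroblast markers summed to 63.3 and 70.7 CPM, the 4 epithelial markers to 2.15 and 0.395 CPM, and the 5 lymphatic markers to 18.0 and 45.0 CPM. Only 4 of the mural and fibroblast markers and 2 of the lymphatic markers were higher in the cGAMP library. Over clusters the mural and fibroblast sum ranged from 31.4 to 151 CPM in PBS and from 39.2 to 220 CPM in cGAMP. The lymphatic sum ranged from 0.801 to 139 CPM in PBS and from 1.45 to 84.7 CPM in cGAMP. Kcnj8 (24.6 and 36.1 CPM) and Abcc9 (18.3 and 21.7 CPM) made up most of the mural sums. Lyve1 (10.2 and 43.6 CPM) made up most of the lymphatic sums, whereas Prox1 was at 2.01 and 0.994 CPM. Among the listed markers, 1 mural, 2 epithelial and 1 lymphatic marker had no UMI in the cGAMP library, and none was at 0 in the PBS library. Median mitochondrial shares were 4.49% and 2.87%. The part of these differences in the results below was not tested, beyond the alternative settings given with them.

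Cells were grouped into 8 clusters without the 5 genes and without genes that differed 2-fold between the libraries, and the clusters are called by their markers and leading gene. They comprised an Ackr1 stalk-like cluster (335 PBS and 324 cGAMP cells), a Gja5 arterial-like cluster (580 and 244), a Pgf tip-like cluster (553 and 244), an Rsad2 tip-like cluster (234 and 85) that interferon genes and Chga lead, and a Ube2c proliferative cluster (490 and 184). An S-phase cluster led by Ung and Hells (214 and 152) had too few raised markers for a name. The other two were small. A cluster led by Slc6a6 and Lpl (66 and 54) had 7 of 10 arterial and 4 of 6 capillary markers raised, and a cluster led by Igfbp5 and Ctsh (45 and 53) had all 11 stalk-like markers raised with none of them among its leading 10 genes.

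Angpt2, the ligand, was the one member with a higher level after cGAMP. It had 34918 UMIs, or 379 CPM (95% interval 375 to 383), after PBS and 35485 UMIs, or 560.0 CPM (554 to 566), after cGAMP. The log2 ratio was 0.56 (0.54 to 0.58), a 1.48-fold difference. This was just under the 1.5-fold mark, which 431 of 9509 genes with at least 5 CPM (4.53%) passed upward and 705 (7.41%) passed downward, and with median-of-ratios scaling 547 genes passed upward and 541 downward. Angpt2 was past the mark with that scaling (log2 ratio 0.63), with cluster proportions held equal (0.75) and as a mean of per-cell CPM (0.66). Outside the proliferative cluster it was barely past the mark (0.59). It stayed under the mark in cells with at most 5% mitochondrial UMIs (0.49) and in cells with 20000 to 60000 UMIs (0.54). It was also under the mark in cells with Pecam1 and Cdh5 but no Ptprc (0.56), and after thinning to 5000 UMIs (0.58).

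**Figure D1:**
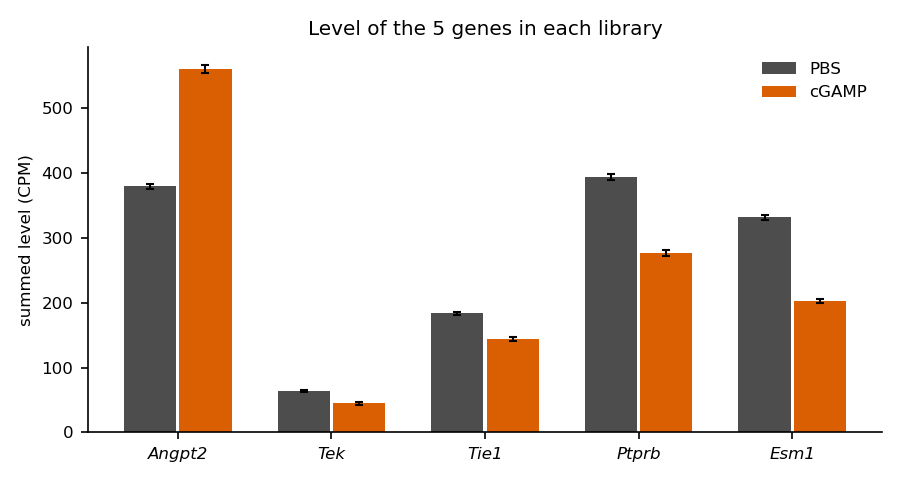
Summed level in CPM (linear vertical axis from 0) of the 5 genes in the PBS (grey) and cGAMP (orange) libraries, with exact Poisson 95% intervals as error bars. Angpt2 stands at 379 CPM in PBS and 560.0 CPM in cGAMP, whereas Tek, Tie1, Ptprb and Esm1 are each lower in the cGAMP library.

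Among PBS-treated ECs, Angpt2 was highest in the Pgf tip-like cluster (700.0 CPM), followed by the Rsad2 tip-like (386 CPM), proliferative (355 CPM) and S-phase (270 CPM) clusters. The Ackr1 stalk-like (184 CPM) and Gja5 arterial-like (169 CPM) clusters came next, and their intervals overlapped. The Igfbp5 cluster (71.1 CPM) and the Slc6a6 cluster (15.2 CPM) were lowest, so the highest level exceeded the lowest 46.0-fold. A spread of 4-fold or more over clusters in both libraries was seen for 7.2% of genes, and for Angpt2, Ptprb and Esm1 among the 5.

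After cGAMP the Pgf tip-like cluster was again highest for Angpt2, at 904 CPM, a log2 ratio of 0.37 (0.33 to 0.40) to PBS. The proliferative cluster differed about as little (log2 ratio 0.39, 0.34 to 0.44). The Gja5 arterial-like cluster had 443 CPM (log2 ratio 1.39, interval 1.32 to 1.46), and the Ackr1 stalk-like cluster had 464 CPM (1.34, 1.26 to 1.42). With these values the stalk-like level stood beside that of proliferative ECs (466 CPM), with overlapping intervals, whereas in PBS the proliferative level was the higher. The S-phase cluster reached 585 CPM (1.12) and the Rsad2 tip-like cluster 670 CPM (0.80). In the Slc6a6 cluster, 19 UMIs in PBS and 116 in cGAMP gave a log2 ratio of 2.46 (1.76 to 3.25). Angpt2 was thus higher in 7 of 8 clusters, as were 22.9% of genes in at least 7 clusters.

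The Pgf tip-like cluster held 46.6% of all PBS-treated Angpt2 UMIs and 32.1% of those after cGAMP. The share from the Ackr1 stalk-like cluster was 4.22% in PBS and 18.4% in cGAMP, where this cluster also had a larger part of the cells (24.2% against 13.3%).

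The Igfbp5 cluster was the exception, with 72 Angpt2 UMIs in PBS (71.1 CPM) and 32 in cGAMP (21.96 CPM), a log2 ratio of -1.69 (-2.34 to -1.08). A single PBS cell held 66 of the 72 UMIs. Angpt2 was found in 6 of 45 PBS cells and in 15 of 53 cGAMP cells of the cluster. Without the 2 cells with most Angpt2 UMIs in each library, the levels were 4.41 CPM (4 UMIs) and 15.8 CPM (22 UMIs), so the direction of this difference rested on 1 cell.

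**Figure D2:**
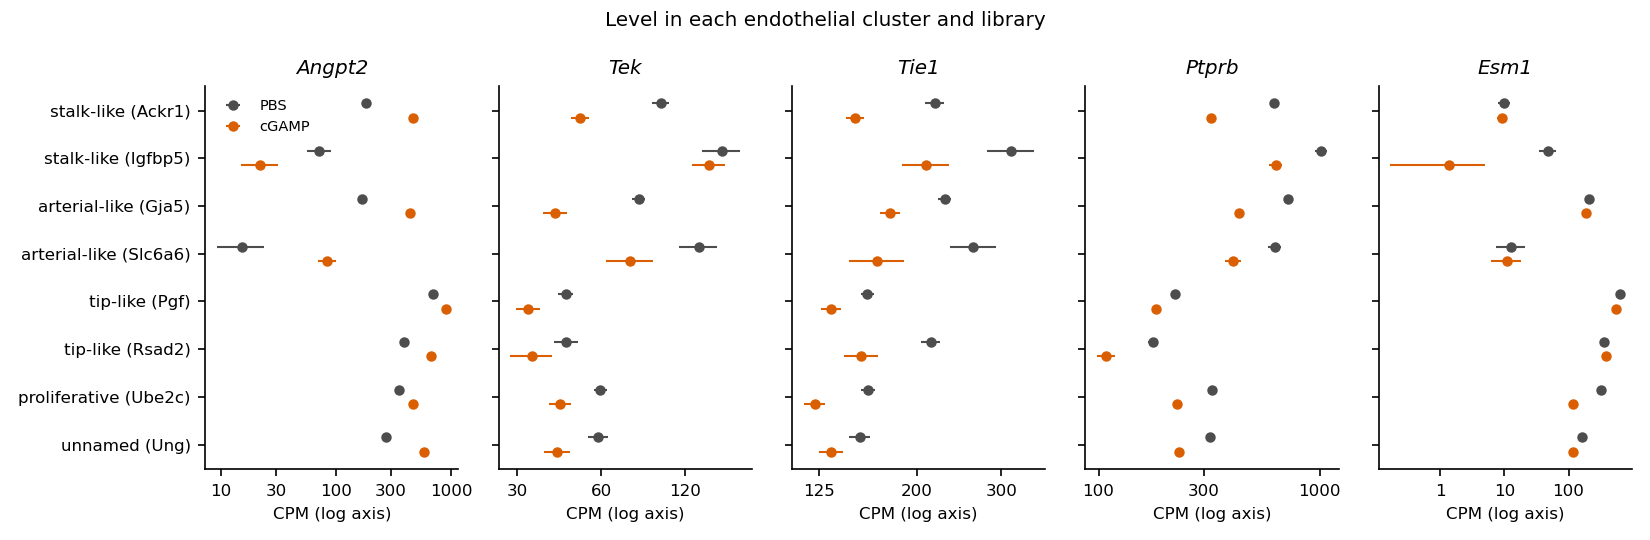
Level in CPM (logarithmic horizontal axes, each with its own range) of the 5 genes in the 8 clusters, named by class and leading gene, for PBS (grey) and cGAMP (orange), with exact Poisson 95% intervals. Angpt2 and Esm1 peak in the Pgf tip-like cluster, and Tek, Tie1 and Ptprb in the Igfbp5 cluster, in both libraries.

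Per cell, the median Angpt2 count was 5 UMIs in PBS and 16 in cGAMP, without correction for the greater depth of the cGAMP cells. After each cell was thinned to 5000 UMIs, which left out 70 PBS and 13 cGAMP cells, an Angpt2 UMI was found in 55.2% (53.2 to 57.2) of ECs after PBS and in 70.9% (68.4 to 73.3) after cGAMP. Unthinned, the shares were 79.1% and 89.5%. For Lyz2, a myeloid gene that ECs should lack, the thinned shares were 2.17% and 6.03%.

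At this equal depth Angpt2 was found in 35.96% of PBS and 67.4% of cGAMP cells of the Gja5 arterial-like cluster, and in 40.4% and 68.0% of the Ackr1 stalk-like cluster. In the Pgf tip-like cluster the shares were already high, at 85.8% and 91.8%, with overlapping intervals. In the Igfbp5 cluster they were 2.27% (1 of 44 cells) and 13.2% (7 of 53 cells), also with overlapping intervals. The tenth of cells with most Angpt2 UMIs held 43.9% of them in PBS and 36.3% in cGAMP at equal depth, so the transcripts were spread over more cells in the cGAMP library.

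**Figure D3:**
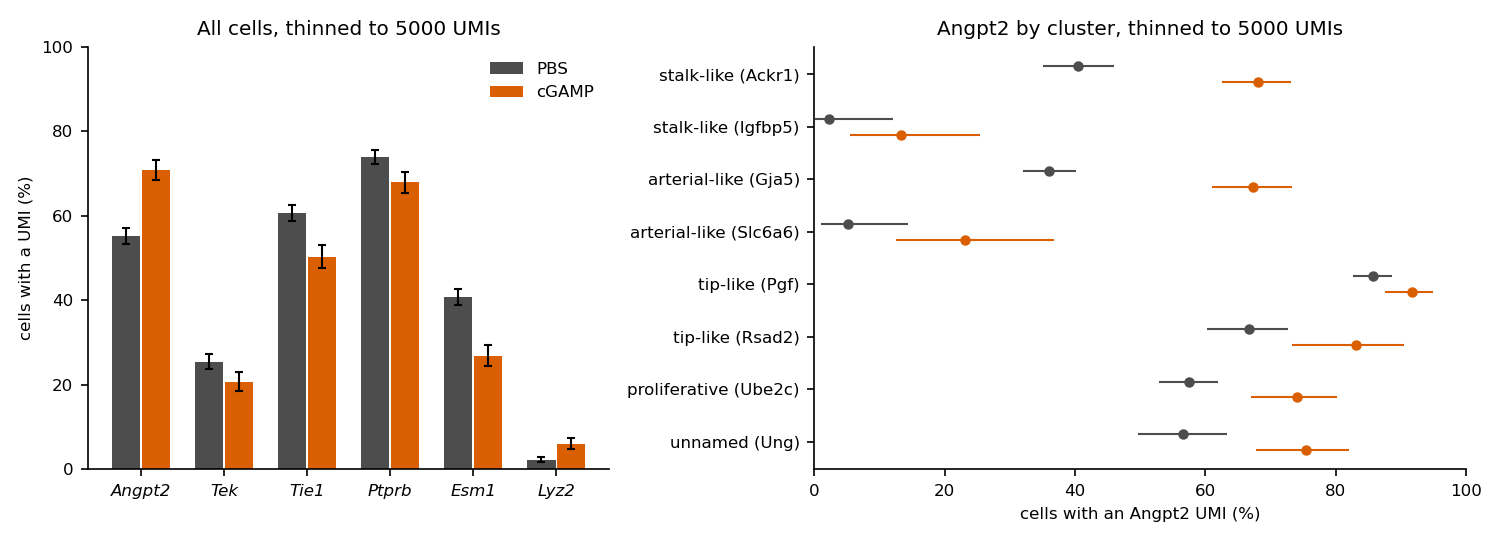
Left, percentage of cells (vertical axis, 0 to 100) with a UMI of each gene after thinning to 5000 UMIs per cell, with Lyz2 for background, and right, the same for Angpt2 in each cluster (horizontal axis), in PBS (grey) and cGAMP (orange) with Clopper-Pearson 95% intervals. The share of Angpt2-positive cells is higher after cGAMP in the Ackr1 stalk-like and Gja5 arterial-like clusters (68.0% and 67.4% against 40.4% and 35.96%), and the intervals overlap in the Pgf tip-like and both small clusters.

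The other Tie ligands were hardly detected. Angpt1, the activating ligand that mural cells supply in many tissues, had 9 UMIs in PBS (0.0977 CPM, 0.0447 to 0.186) and 7 in cGAMP (0.110 CPM, 0.0444 to 0.228). Lect2, a Tie1 ligand, had 1.998 and 2.036 CPM. Angpt4 and Svep1 were not among the 17139 genes measured, so no level can be given for them.

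Tek was lower after cGAMP. It had 5875 UMIs, or 63.8 CPM (62.2 to 65.5), in PBS and 2826 UMIs, or 44.6 CPM (43.0 to 46.3), in cGAMP, a log2 ratio of -0.52 (-0.58 to -0.45). Tek was highest in the Igfbp5 cluster (162 CPM in PBS, 145 CPM in cGAMP), where Angpt2 was low, and lowest in the Pgf tip-like cluster (44.7 and 32.8 CPM), where Angpt2 was highest. In PBS the Slc6a6 cluster (134 CPM) overlapped the Igfbp5 cluster. The 2 tip-like clusters overlapped each other in both libraries.

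Tek was lower in all 8 clusters, and 35.6% of genes were lower in at least 7. The Gja5 arterial-like cluster had 81.8 CPM in PBS and 41.1 CPM in cGAMP (log2 ratio -0.99, -1.16 to -0.83), and the Ackr1 stalk-like cluster 98.0 and 50.4 CPM (-0.96, -1.11 to -0.81). In the tip-like and cycling clusters the log2 ratios lay between -0.49 and -0.41. The Igfbp5 cluster was the one whose interval held 0 (-0.15, -0.46 to 0.15). The share of cells with a Tek UMI at equal depth was 25.4% (23.7 to 27.2) in PBS and 20.7% (18.6 to 23.0) in cGAMP, and unthinned it was 75.8% and 75.7%.

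Tie1, the orphan receptor, had 16883 UMIs, or 183 CPM (181 to 186), in PBS and 9148 UMIs, or 144 CPM (141 to 147), in cGAMP, with a log2 ratio of -0.34 (-0.38 to -0.31). It was the most even of the 5 genes over clusters, with the highest level 2.07-fold above the lowest in PBS and 1.71-fold in cGAMP. In PBS it ranged from 152 CPM in the S-phase cluster to 314 CPM in the Igfbp5 cluster, and 6 of 7 neighbours in the order of levels had overlapping intervals. Tie1 was lower in all 8 clusters, and 35.6% of genes were lower in at least 7. Its log2 ratios ran from -0.67 in the Slc6a6 cluster to -0.20 in the S-phase cluster, with every interval below 0. At equal depth a Tie1 UMI was found in 60.7% of ECs after PBS and in 50.3% after cGAMP, and unthinned in 95.5% and 96.0%.

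The UMI ratio of Angpt2 to Tek was 5.94 in PBS and 12.6 in cGAMP, a 2.11-fold difference (log2 1.08, 1.01 to 1.15). It was 4.91-fold higher in the Ackr1 stalk-like cluster (1.87 in PBS, 9.20 in cGAMP) and 5.23-fold higher in the Gja5 arterial-like cluster (2.06 and 10.8). In the Pgf tip-like cluster it was high in both libraries, at 15.7 and 27.5. The Slc6a6 cluster stood lowest in PBS at 0.114 and reached 1.10 in cGAMP. The Igfbp5 cluster ran the other way, with 0.439 in PBS and 0.151 in cGAMP (log2 difference -1.54, -2.21 to -0.87), a value that includes the single PBS cell with most of its Angpt2 UMIs. The ratio of Ptprb to Tek was 6.17 in PBS and 6.20 in cGAMP, with an interval of the log2 difference from -0.06 to 0.08, and that of Tie1 to Tek was 2.87 and 3.24 (log2 difference 0.17, 0.10 to 0.25).

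Ptprb, the phosphatase that acts on Tie2, had 36252 UMIs, or 394 CPM (390 to 398), in PBS and 17513 UMIs, or 276 CPM (272 to 280), in cGAMP, with a log2 ratio of -0.51 (-0.54 to -0.48). Its PBS level was highest in the Igfbp5 cluster (1015 CPM) and in the Gja5 arterial-like cluster (720.5 CPM). The Slc6a6 (625 CPM) and Ackr1 stalk-like (621 CPM) clusters followed and overlapped, and the tip-like clusters were lowest, at 221 CPM in the Pgf and 177 CPM in the Rsad2 cluster.

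Ptprb was lower in the cGAMP library in all 8 clusters, with every interval below 0, and 35.6% of genes were lower in at least 7. The log2 ratio was -0.94 (-0.998 to -0.88) in the Ackr1 stalk-like cluster, where 621 CPM in PBS stood against 324 CPM in cGAMP, and -0.75 in the Gja5 arterial-like cluster (430 CPM in cGAMP). It was smallest in the Pgf tip-like cluster, at -0.28 (-0.36 to -0.21). The order of the clusters by Ptprb was nearly kept, with the Igfbp5 cluster first (633 CPM) and the Rsad2 tip-like cluster last (108 CPM) in cGAMP. At equal depth a Ptprb UMI was found in 74.0% of ECs after PBS and in 67.9% after cGAMP. Thinned to 10000 UMIs the shares were 87.0% and 85.2%, with overlapping intervals, and unthinned they were 95.6% and 96.3%, so no direction is read from them.

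**Figure D4:**
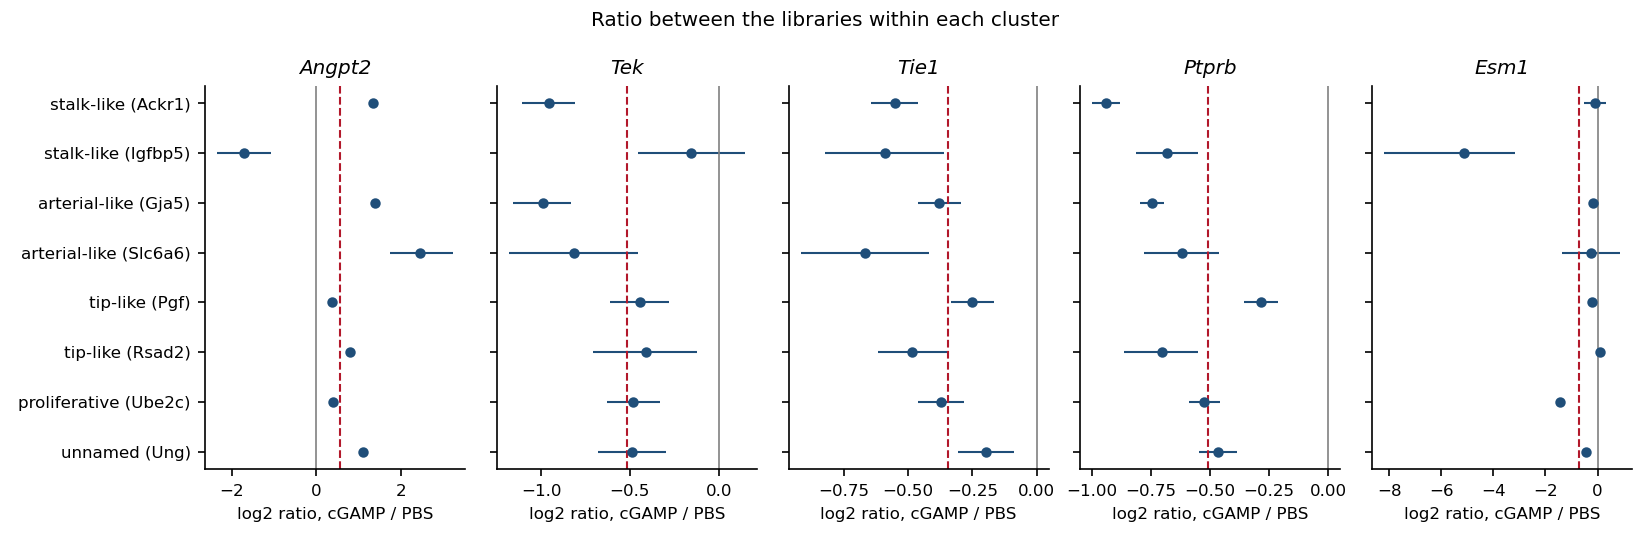
Log2 ratio of CPM, cGAMP over PBS (horizontal axes, each with its own range), within each cluster for the 5 genes, with 95% counting intervals, a grey line at 0 and a dashed red line at the ratio of the whole libraries. Tek, Tie1 and Ptprb lie below 0 in all 8 clusters, and Angpt2 lies above 0 in all but the Igfbp5 cluster, whose value rests on 1 PBS cell.

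Esm1, the tip cell product, had the largest difference of the 5 genes over whole libraries and was the one past 1.5-fold. It had 30558 UMIs, or 332 CPM (328 to 336), in PBS and 12819 UMIs, or 202 CPM (199 to 206), in cGAMP, a log2 ratio of -0.71 (-0.74 to -0.68). With cluster proportions held equal the log2 ratio was -0.35, so the 1.5-fold call ended when the mix of clusters was fixed. The tip-like and proliferative clusters together took a smaller part of the cGAMP cells, with 18.2% against 21.97% for the Pgf tip-like cluster and 13.7% against 19.5% for the proliferative cluster.

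Within clusters Esm1 differed unevenly. The Pgf tip-like cluster, where Esm1 was highest, had 637 CPM in PBS and 553 CPM in cGAMP (log2 ratio -0.20, -0.24 to -0.16), and the Rsad2 tip-like cluster had 359 and 380.4 CPM (0.08, -0.01 to 0.17). The proliferative cluster stood apart from both, with 322 CPM in PBS and 119 CPM in cGAMP (-1.44, -1.52 to -1.35). The S-phase cluster had 161 and 118 CPM (-0.44), and the Gja5 arterial-like cluster 208 and 187 CPM (-0.16, -0.24 to -0.07). In the Ackr1 stalk-like cluster Esm1 was near its lowest level in both libraries, at 9.96 and 9.25 CPM, with an interval of the log2 ratio from -0.52 to 0.31.

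In the Igfbp5 cluster Esm1 had 48 UMIs in PBS, 39 of them in 1 cell, and 2 UMIs in cGAMP (log2 ratio -5.11, -8.20 to -3.18). Without the 2 cells with most Esm1 UMIs in each library, 7 and 0 UMIs were left, so this value too rested mainly on 1 cell. Across all ECs at equal depth, Esm1 was found in 40.8% (38.8 to 42.8) of PBS-treated and 26.8% (24.5 to 29.3) of cGAMP-treated cells. The tenth of cells with most Esm1 UMIs held 57.8% of them in PBS and 70.3% in cGAMP, opposite to the broader spread of Angpt2.

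Esm1 was more frequent among cells with Angpt2 than among cells without it. At equal depth 56.9% (54.2 to 59.6) of Angpt2-positive PBS-treated ECs had an Esm1 UMI, against 20.9% (18.5 to 23.4) of Angpt2-negative ones, and in the cGAMP library the shares were 33.8% and 9.84%. Unthinned, the shares were 68.5% and 28.3% in PBS and 50.3% and 9.93% in cGAMP, so the difference in the cGAMP library was 23.9 points at equal depth and 40.4 points without thinning. Within the Pgf tip-like cluster of the PBS library the shares were 73.7% and 51.3%, so part of the pairing was seen inside that cluster too. In the cGAMP library only 20 cells of that cluster lacked Angpt2, and the intervals overlapped.

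Over all cells, Angpt2 was less frequent among cells with a UMI of its receptor gene Tek than among cells without one. Angpt2 was found in 43.8% (39.9 to 47.8) of Tek-positive and 59.1% (56.8 to 61.4) of Tek-negative PBS-treated ECs, and in 61.1% and 73.5% of cGAMP-treated ones. Within the Pgf tip-like cluster of the PBS library the shares were 87.4% and 85.5%, with overlapping intervals. Without thinning, where deeper cells show both genes more readily, the difference over all PBS cells turned to 4.27 points in favour of Tek-positive cells. Ptprb was found in 80.0% of Tek-positive and 71.9% of Tek-negative cells in PBS, and in 74.5% and 66.2% in cGAMP, where the intervals just overlapped. Within the Pgf tip-like cluster the shares were 62.1% and 58.8% in PBS and 54.3% and 52.9% in cGAMP, with overlapping intervals in each library.

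Cells were also ranked within each library by a score over 10 interferon response genes, all of them at least 1.5-fold higher in the cGAMP library. In the cGAMP library Angpt2 was 454 CPM in the lowest tercile of cells by this score, 576 CPM in the middle tercile and 634 CPM in the highest tercile, whose median depths were 38291, 38596 and 47624 UMIs. In the PBS library the levels were 375, 363 and 398 CPM. The terciles are ranges of a continuous score, with 236 of 1340 cGAMP cells and 955 of 2517 PBS cells within 0.05 of a boundary.

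Within the 5 clusters with at least 100 cGAMP cells, Angpt2 was higher in the highest than in the lowest interferon tercile in all 5, with log2 differences from 0.20 to 0.62 and every interval above 0. In the Pgf tip-like cluster the levels were 722 and 1004 CPM, and in the Ackr1 stalk-like cluster 394 and 510 CPM. Among the 6 such clusters of the PBS library the interval was above 0 in 3 and below 0 in 2. The lowest tercile of the cGAMP library, at 454 CPM, was above every tercile of the PBS library. These terciles cover different ranges of the score, because each library was cut on its own. The lowest cGAMP tercile reached up to a score of 0.877, whereas the highest PBS tercile began at 0.478. Whether Angpt2 differed between the libraries in cells of equal score was not tested.

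The other members followed the score differently. Ptprb in the PBS library was 331, 405 and 436 CPM from the lowest to the highest interferon tercile and was higher in the highest tercile in 5 of 6 clusters, whereas in the cGAMP library it was lower in the highest tercile in 3 of 5 clusters and in no cluster higher by its interval. Tie1 in the PBS library was 161, 183 and 203 CPM over the terciles, and 145, 149 and 140 CPM in cGAMP. Tek had no interval above 0 within the clusters of either library. Esm1 in cGAMP was 224, 235 and 156 CPM, and its largest contrast within a cluster was in the S-phase cluster, with 199 and 55.0 CPM.

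By a score over 10 hypoxia genes, Angpt2 in the PBS library was 225 CPM in the lowest, 268 CPM in the middle and 588 CPM in the highest tercile. In the cGAMP library it was 477, 513 and 677 CPM. Esm1 was 203, 223 and 521 CPM in PBS and 98.9, 142 and 350 CPM in cGAMP, so both genes were highest in the cells with most hypoxia transcripts in either library. Tek was lowest in the highest tercile of both libraries (52.2 and 41.0 CPM). Ankrd37, Egln3 and Bnip3 of this score are also leading genes of the Pgf tip-like cluster, so the terciles overlap with the clusters, and 1195 PBS and 761 cGAMP cells lay within 0.05 of a boundary.

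The wider pathway was described by lists, each set beside the median log2 ratio of all 9509 genes, which was -0.08, and beside the 4.53% of those genes that were at least 1.5-fold higher and the 7.41% that were lower. In the list of Tie receptors, phosphatases and sheddases, none of the 7 genes with enough CPM was past 1.5-fold, and the median was -0.34. Adam10, a sheddase of endothelial receptors, was at 148 CPM in PBS and 107 CPM in cGAMP (log2 ratio -0.47), close to Tek and Ptprb. Adam17 (-0.18), Ptpn11, which encodes the phosphatase SHP2 (-0.15), and Mmp14, a membrane metalloproteinase (0.02), differed less, and Ptprj was under the minimum at 3.04 and 2.60 CPM. The 4 integrin genes with enough CPM had a median of -0.03 and none past 1.5-fold, with Itgb1 at 666 and 669 CPM, Itga5 at 110.0 and 109 CPM, and Itgb3 at 74.0 and 68.5 CPM.

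None of the 13 genes of the Tie2 adaptor and PI3K-AKT list was past 1.5-fold, and the median was -0.13. Akt1 was at 177 CPM in PBS and 164 CPM in cGAMP (-0.11), and the adaptor Grb2 at 99.7 and 99.4 CPM. Pik3cb, a catalytic PI3K subunit, had the largest difference in the list, at 11.4 and 8.43 CPM (-0.43). Of 8 FOXO genes and targets, 1 was at least 1.5-fold higher (4.53% of all genes) and 2 at least 1.5-fold lower (7.41%), with a median of -0.19. Foxo1, the factor known to drive Angpt2, was at 111 CPM in PBS and 68.3 CPM in cGAMP (-0.70, -0.75 to -0.65) and was lower in all 8 clusters. Klf2, a shear-responsive factor, was the higher one (283 and 432 CPM, 0.61) and was higher in all 8 clusters. Of all genes, 35.6% were lower and 22.9% higher in at least 7 clusters. Klf4 was at 154 CPM in both libraries. The other lower gene, Cdkn1b, a cell cycle inhibitor, was named after its values were seen (-0.66).

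In the list of VE-PTP partners and junction genes, 1 of 8 was at least 1.5-fold lower and the median was -0.23. Cdh5, which encodes VE-cadherin, was at 1146 CPM in PBS and 1008 CPM in cGAMP (-0.18), and Pecam1 at 944 and 824 CPM (-0.20). The lower gene was Jup, which encodes plakoglobin (36.2 and 23.7 CPM, -0.61), although with median-of-ratios scaling it was no longer past 1.5-fold. Of 6 Weibel-Palade body genes, 1 was at least 1.5-fold higher and 2 were lower. Vwf, the main cargo of these granules, was at 244 CPM in PBS and 123 CPM in cGAMP (-0.99, -1.03 to -0.96), and Selp, a leucocyte adhesion receptor stored with it, at 174 and 344 CPM (0.99, 0.96 to 1.02). Cd63 was at 391 and 512 CPM (0.39). The other lower gene was Rab3d, a granule GTPase, at 11.8 and 6.58 CPM, which was named after its values were seen. Vwf was lower in all 8 clusters, and 35.6% of all genes were lower in at least 7. Selp was higher in 5 clusters and lower in 3. In the Ackr1 stalk-like cluster, itself led by Selp as well, Selp was at 872 CPM in PBS and 935 CPM in cGAMP. In the Igfbp5 cluster it was at 1220 and 1010 CPM, in the proliferative cluster at 145 and 246 CPM, and in the S-phase cluster at 198 and 308 CPM. Ackr1 stalk-like cells were a larger part of the cGAMP library (24.2% against 13.3%). The share of this in the Selp difference over whole libraries was not tested.

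Of 7 VEGF genes, 1 was at least 1.5-fold lower, with a median of -0.10. That gene was Pgf, a ligand of VEGF receptor 1 (238 CPM in PBS and 149.7 CPM in cGAMP, -0.67). Flt1, which encodes that receptor, was at 681 and 822 CPM (0.27) and higher in all 8 clusters, whereas 22.9% of all genes were higher in at least 7. Kdr was at 309 and 289 CPM (-0.10). Of 9 hypoxia genes, 3 were at least 1.5-fold lower (7.41% of all genes) and none higher (4.53%), with a median of -0.38. Egln3, an oxygen-sensing hydroxylase, was at 25.3 and 5.54 CPM (-2.19), while Ldha (702 and 704 CPM) and Pgk1 (441 and 421 CPM), both of glycolysis, lay within 0.07 of 0 on the log2 scale. Ankrd37 (-0.95) and Ndrg1 (-0.60), the other lower ones, were named after their values were seen, and with median-of-ratios scaling Ndrg1 was no longer past 1.5-fold.

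**Figure D5:**
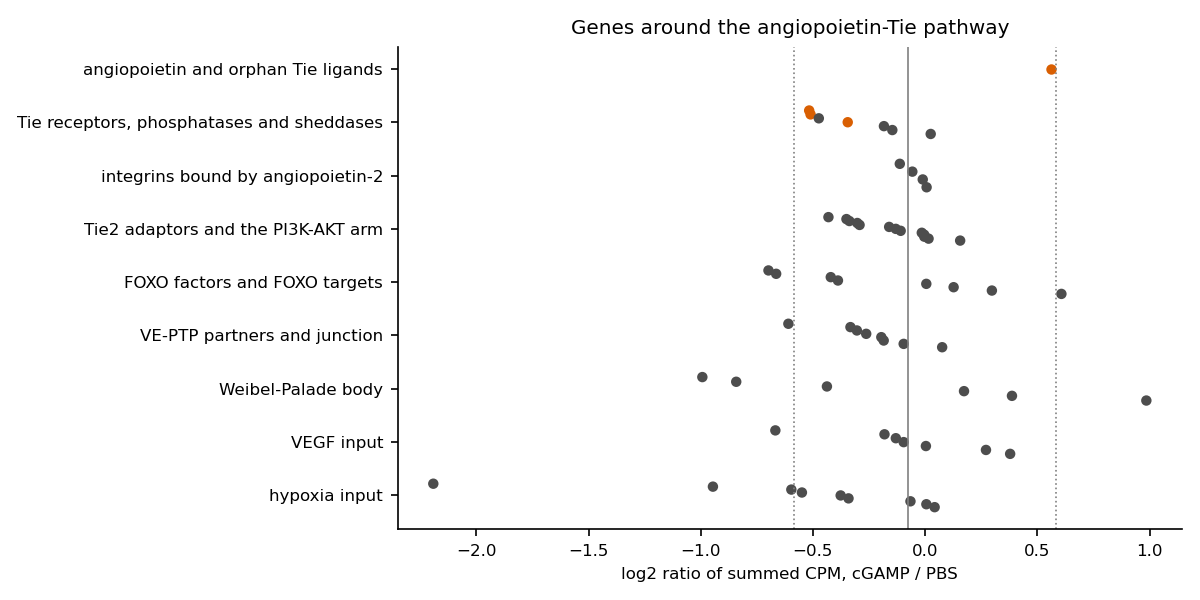
Log2 ratio of summed CPM, cGAMP over PBS (horizontal axis), for each gene with at least 5 CPM in 9 lists around the angiopoietin-Tie pathway (rows), with the listed members of the 5 genes in orange. The grey line marks the median of all genes (-0.08) and the dotted lines 1.5-fold in either direction, and the Tie receptor list lies mostly between the grey line and the lower dotted line while Angpt2 lies just inside the upper one.

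Likeness was taken over the 16 points given by 8 clusters in 2 libraries, on log2(CPM + 5), among 6045 genes with at least 20 CPM. These points share libraries and depth, so the correlations are descriptions. The genes most like Angpt2 were Kcne3 (r = 0.94), which is also one of the tip-like markers, Nt5c (0.93) and Dctd (0.92). Those most like Tek were Fzd6, Prdm2 and Phc2 (each 0.97), and those most like Tie1 were Sidt2 (0.96), Ano6 (0.96) and Cuedc1 (0.95). Ptprb was most like Entpd1 (0.97), Heg1 (0.97) and Bmpr2 (0.96). Esm1 was most like Apln (0.96), Sipa1 (0.95) and Dad1 (0.95), and Apln is also a tip-like marker.

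Among the 5 genes themselves, over the same 16 points, Tek went with Ptprb (r = 0.89) and Tie1 (0.82), and Angpt2 with Esm1 (0.74). Angpt2 ran opposite to Tek (-0.92), Ptprb (-0.76) and Tie1 (-0.72). The points pool both libraries, so differences between the libraries enter these values, and no correlation was taken within a library alone. They include the Igfbp5 cluster in PBS, where a single cell held 66 of 72 Angpt2 UMIs. The Pgf tip-like cluster had the highest Angpt2 and the lowest Tek level in both libraries. Its Tek interval overlapped that of the Rsad2 tip-like cluster in each library. Ptprb was lowest in the Rsad2 tip-like cluster.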

How the data were processed

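For each kept EC the authors deposited the natural log of 1 plus UMIs per 10000, after Cell Ranger 3.0.0 on mm10 and Seurat 3.1.1 (submitters' processing notes), with cells under 500 genes or above 10% mitochondrial UMIs, genes in fewer than 3 cells and Pecam1-negative clusters removed. Cells were sorted as live CD45- CD31+. The design had assumed counts, so UMIs were recovered, and 100% of values came within 0.01 of a whole number. The droplet kit is version 3 in the methods but version 2 in the labels. Doublets were not removed and no caller was run.

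Clusters came from Seurat 5.3.0 in R 4.3.3 (2500 variable genes, less those left out, 30 components, resolution 0.5), and were named where 3 markers were raised 2-fold with 5 CPM added. They need not match the study's. Intervals are exact Poisson, Clopper-Pearson or binomial (95%). Ratio functions were tested on simulated data. Thinning was without replacement. Coordinates are from GENCODE.

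The members and lists were chosen with earlier results of these data known. Named were the members, all detected ligand and receptor genes, in other lists the 2 most abundant genes and the one with the largest ratio, and the 3 genes most like each member.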

Additional observations from a re-analysis of the deposited data

Results flagged for a closer look

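Angpt2 was higher after cGAMP in 7 clusters by its counting interval and lower in the Igfbp5 cluster, at a log2 ratio of -1.69. The difference between clusters was not tested. Of the 72 PBS UMIs behind it 66 came from 1 cell, without the 2 cells with most UMIs in each library the log2 ratio was 1.84, and at equal depth Angpt2 was found in 2.27% of PBS and 13.2% of cGAMP cells of the cluster.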

How the results depend on the processing

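Signs were kept by the log2 ratios of the 5 genes under all 8 alternatives, while many values left the narrow counting intervals. With median-of-ratios scaling they were 0.63 (Angpt2), -0.45 (Tek), -0.28 (Tie1), -0.44 (Ptprb) and -0.64 (Esm1), and Jup and Ndrg1 were no longer past 1.5-fold. With cluster proportions held equal they were 0.75, -0.69, -0.40, -0.68 and -0.35, and with at most 5% mitochondrial UMIs 0.49, -0.44, -0.26, -0.40 and -0.76, in the same order. The mean of per-cell CPM moved Angpt2 to 0.66, Ptprb to -0.54 and Esm1 to -0.61. Cells outside the proliferative cluster gave 0.59 for Angpt2 and -0.60 for Esm1. Cells with 20000 to 60000 UMIs gave -0.31 (Tie1), -0.40 (Ptprb) and -0.66 (Esm1), and thinning to 5000 UMIs gave -0.39 (Tek), -0.42 (Tie1), -0.48 (Ptprb) and -0.64 (Esm1). The cause of these shifts was not tested.

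Over the 4 named classes, Angpt2, Tek, Tie1 and Ptprb kept their direction in all 4 under 5 other groupings. Esm1 was lower in 3 of 4 with all variable genes and in 2 of 4 without integration. Cells of unnamed clusters were outside these classes. Without integration these were 581 PBS and 240 cGAMP cells, and a cluster within the stalk-like class held 14 PBS and 344 cGAMP cells. Differences in shares of cells depended on depth. Without thinning, the cGAMP share minus the PBS share was 10.4 points for Angpt2, -0.17 for Tek, 0.53 for Tie1 and 0.79 for Ptprb, the latter pair reversed from the thinned values, and for Tek thinned to 10000 UMIs it was -9.83 points. Unthinned, Angpt2 was more frequent by 4.27 points in Tek-positive PBS cells, also a reversal. For Ptprb thinned to 10000 UMIs the difference in shares was -1.82 points, against -6.07 at 5000. In the Igfbp5 cluster the log2 ratio of Angpt2 became 1.84 without the 2 cells with most UMIs in each library, an alternative chosen after seeing the data.

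No paired analysis was possible because each condition has 1 library. With no spread between mice, condition, mouse, sort and library cannot be told apart. The paper reports apoptosis of tumour ECs and fewer live ECs after cGAMP in LLC tumours, and only live ECs were sorted. A change in expression and a selective loss of cells therefore cannot be told apart either. The small clusters rest on 45 to 66 cells per library, and their values on few UMIs. Tek, at a median of 2 UMIs per cell, limits what can be said of single cells.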
